A study of Mus musculus with 8 samples.

Results

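Mdm2, Mdm4, Eda2r, Plk2 and Ccng1 are 5 genes of the network around the tumour suppressor p53, and they were followed here in mouse hindlimb muscle that had lost its nerve. They were chosen by name, from probe sets annotated with 1 gene symbol, and are 5 of the 14860 genes measured; each had 1 probe set. The choice was made from the values of the same comparison, denervated against innervated muscle, so the members' own differences are given as a description without a test. All samples were tibialis anterior, a lower hindlimb muscle, of male C57BL/6 mice aged 8 weeks whose left sciatic nerve had been cut. The 4 denervated samples and the 4 innervated samples, the latter from the contralateral side, were taken 7 days after the cut. The innervated muscle therefore also came from an operated animal, and no sham-operated group was analysed here. The study asked which mRNA levels in skeletal muscle change once the nerve is lost. Each sample was 1 array, values are log2 intensities, and a difference is denervated minus innervated.

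p53 is a transcription factor that is held at a low level by Mdm2, a ubiquitin ligase that marks it for degradation, and by Mdm4, a relative of Mdm2 that binds p53 and blocks its activity. Mdm2 is itself a target gene of p53, which makes a feedback loop. Ccng1, Plk2 and Eda2r are known as p53 targets as well. Ccng1 encodes cyclin G1, a partner of the phosphatase PP2A that promotes the action of Mdm2, Plk2 encodes a polo-like kinase of the stress response and of neurons, and Eda2r encodes the receptor for the A2 form of ectodysplasin, which signals through TRAF adaptors to NF-kB. Mdm2 is also an essential brake on p53 in many adult tissues, and p53 and its relatives have been studied in muscle wasting.

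The stretch from 250 bases before to 50 bases after the start of each gene was taken from RefSeq (GRCm38.p6) to see which motifs the members hold there. The members were named as genes of the p53 network, so a p53 match is not independent of their choice. A p53 half-site is only part of a full p53 element, and sequence outside this window was not searched. All 5 members had an entry, and Mdm4 had 2. Both strands were searched for the p53 half-site consensus, for the FoxO element GTAAACA, for the myogenic E-box CAGCTG and for the NF-kB consensus. The promoters of Mdm2, Eda2r and Ccng1 are shown because they held a p53 half-site or a FoxO element. Capitals mark the matches, and each sequence runs 5′ to 3′ on the strand of its gene.
Mdm2, chr10:117710709-117711008, minus strand: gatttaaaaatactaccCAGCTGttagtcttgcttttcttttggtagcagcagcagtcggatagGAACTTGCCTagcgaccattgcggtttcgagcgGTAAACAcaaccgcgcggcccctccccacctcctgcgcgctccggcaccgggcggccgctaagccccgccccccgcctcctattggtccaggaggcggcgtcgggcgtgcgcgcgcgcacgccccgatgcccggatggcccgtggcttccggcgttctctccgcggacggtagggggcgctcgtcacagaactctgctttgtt
Eda2r, chrX:97377160-97377459, minus strand: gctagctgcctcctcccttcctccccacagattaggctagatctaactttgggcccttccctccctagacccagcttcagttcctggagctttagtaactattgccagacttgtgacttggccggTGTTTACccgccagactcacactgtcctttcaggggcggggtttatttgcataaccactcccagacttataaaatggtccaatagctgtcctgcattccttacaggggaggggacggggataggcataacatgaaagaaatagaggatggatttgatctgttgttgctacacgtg
Ccng1, chr11:40755237-40755536, minus strand: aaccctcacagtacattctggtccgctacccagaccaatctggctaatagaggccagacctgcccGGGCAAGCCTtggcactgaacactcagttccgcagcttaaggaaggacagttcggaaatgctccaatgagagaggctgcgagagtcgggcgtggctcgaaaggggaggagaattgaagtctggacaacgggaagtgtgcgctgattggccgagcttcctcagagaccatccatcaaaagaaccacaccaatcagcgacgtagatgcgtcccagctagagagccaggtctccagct
The Mdm2 promoter held a p53 half-site from 186 to 177 bases before the start, a FoxO element from 153 to 147 and an E-box from 233 to 228. The Ccng1 promoter held a p53 half-site from 185 to 176 bases before the start and no other match. The Eda2r promoter held a FoxO element from 125 to 119 bases before the start. Of the 2 Mdm4 entries, 1 held 2 E-boxes and the other no match, and the Plk2 promoter held none. Among 32851 promoters of the same length, 8.36% held a p53 half-site, 3.65% the FoxO element, 16.3% the E-box and 8.46% the NF-kB consensus. None of the motifs overlapped another in these promoters. A p53 half-site was thus found both for a gene that was higher in denervated muscle, Mdm2, and for the one that was lower, Ccng1; a match describes letters in this window only.

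The tissue matched its label, since all 10 fibre markers were bright, with innervated means between 9.28 and 12.77 where the upper quartile of the arrays lay between 6.68 and 6.84. Array medians ran from 5.84 to 6.00. Both arrays of replicate 3 differed from the rest: their values spread less, with SDs of 1.36 (innervated) and 1.25 (denervated) where the remaining 6 arrays had 1.45 to 1.56. The correlation between denervated replicate 3 and any further denervated array was 0.927 to 0.930, whereas denervated replicates 1, 2 and 4 reached 0.979 to 0.986 among themselves. The mean of the 9 measured leukocyte markers was 7.05 on denervated replicate 3, 6.22 to 6.29 on the other denervated arrays and 5.73 to 5.94 on the innervated ones, with Ptprc, the pan-leukocyte CD45 gene, at 9.34 on that array against 5.97 to 6.10. The mean of the fibre markers was 10.7 there, 11.3 on each of the other denervated arrays and 11.4 to 11.8 on the innervated ones. All 10 fibre markers had a negative difference, with a median of -0.32. Of the 10, 3 fell, or 30%, where 8.45% of all genes passed at an adjusted p under 0.05 in limma (4.89% lower). The glycogen phosphorylase gene Pygm fell by a difference of -1.35, the creatine kinase gene Ckm by -0.996 and the myosin light chain gene Mylpf by -0.51 (limma adjusted p = 0.00585, 0.00680 and 0.0308). Pygm and Ckm passed under every alternative run, and Mylpf missed the threshold after quantile normalization (0.127), cyclic loess (0.0895) and median centring (0.0504) and without replicates 1, 2 and 4 (0.0747 to 0.154). In whole muscle, fewer cells of a type and less RNA per cell cannot be told apart.

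The inhibitors of p53 were both higher in denervated muscle. Mdm2 read 8.34, 8.08, 7.93 and 8.18 in innervated replicates 1 to 4 and 9.26, 9.28, 8.62 and 9.40 in the denervated ones. Every denervated array was above every innervated array, with a gap of 0.29 between the groups, and denervated replicate 3 was the lowest of its group. The mean went from 8.13 ± 0.17 to 9.14 ± 0.35 (SD, n = 4), a difference of 1.01 (SE 0.12), or 2.01-fold. Mdm4 read 7.21, 6.97, 7.01 and 7.04 in innervated muscle and 8.90, 8.74, 7.99 and 9.37 in denervated muscle. The groups were separated by 0.78, and replicate 3 was again the lowest denervated array while replicate 4 was the highest. Its mean went from 7.06 ± 0.11 to 8.75 ± 0.57 (SD, n = 4), a difference of 1.69 (SE 0.20), or 3.23-fold. By pair of equal replicate number, Mdm2 was higher by 0.69 to 1.22 and Mdm4 by 0.98 to 2.32. Without replicate 3 the differences were 1.11 for Mdm2 and 1.93 for Mdm4.

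Eda2r, the ectodysplasin receptor gene, had the largest difference of the members, and only 2 of all 14860 genes had a larger one. It read 5.81, 5.84, 5.31 and 5.51 in innervated muscle and 9.14, 9.10, 7.13 and 9.25 in denervated muscle. In innervated muscle it was dim, brighter than only 25.2% to 46.2% of the genes on its array, whereas 3 denervated arrays placed it above 96.2% to 96.7% of genes and replicate 3 above 83.6%. The groups were separated by 1.29. The mean went from 5.62 ± 0.25 to 8.65 ± 1.02 (SD, n = 4), a difference of 3.03 (SE 0.28), or 8.19-fold, with pair differences from 1.81 in replicate 3 to 3.73 in replicate 4. Without replicate 3 the difference was 3.44. The table holds no detection values, so the innervated level cannot be told from background and the fold is one of intensity.

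Plk2, the polo-like kinase gene, differed less evenly. It read 6.47, 6.31, 5.90 and 6.30 in innervated muscle and 7.71, 6.96, 6.54 and 8.16 in denervated muscle. The groups did not overlap, but the gap was only 0.07, between innervated replicate 1 and denervated replicate 3. The mean went from 6.24 ± 0.24 to 7.34 ± 0.73 (SD, n = 4), a difference of 1.10 (SE 0.21), or 2.14-fold. Its pair differences ran from 0.64 in replicate 3 and 0.66 in replicate 2 to 1.24 in replicate 1 and 1.85 in replicate 4. Without replicate 4 the difference was 0.85, and without replicate 3 it was 1.25.

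Ccng1, the cyclin G1 gene, was the member that was lower. It read 11.62, 11.65, 11.67 and 11.53 in innervated muscle and 10.97, 11.20, 10.91 and 11.10 in denervated muscle. All 4 denervated arrays were below all 4 innervated arrays, with a gap of 0.32. On every array it was brighter than at least 99.6% of genes. The mean went from 11.62 ± 0.06 to 11.05 ± 0.13 (SD, n = 4), a difference of -0.57 (SE 0.11), so that the innervated level was 1.49-fold the denervated one. Quantile normalization gave a smaller difference of -0.36 and cyclic loess one of -0.39, and without replicate 3 it was -0.51. The fibre markers were lower as well, with a median difference of -0.32, and the part of a general fall of fibre mRNA in the difference of Ccng1 was not tested. For all 5 members the groups did not overlap; this held for 12.7% of all genes, and since this comparison chose the members, nothing is read from their count. In the fit across all genes the differences of Mdm2, Mdm4, Eda2r and Plk2 were higher than those of 99.0%, 99.8%, 99.98% and 99.2% of genes, and that of Ccng1 was higher than those of 4.40%.

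**Figure D1:**
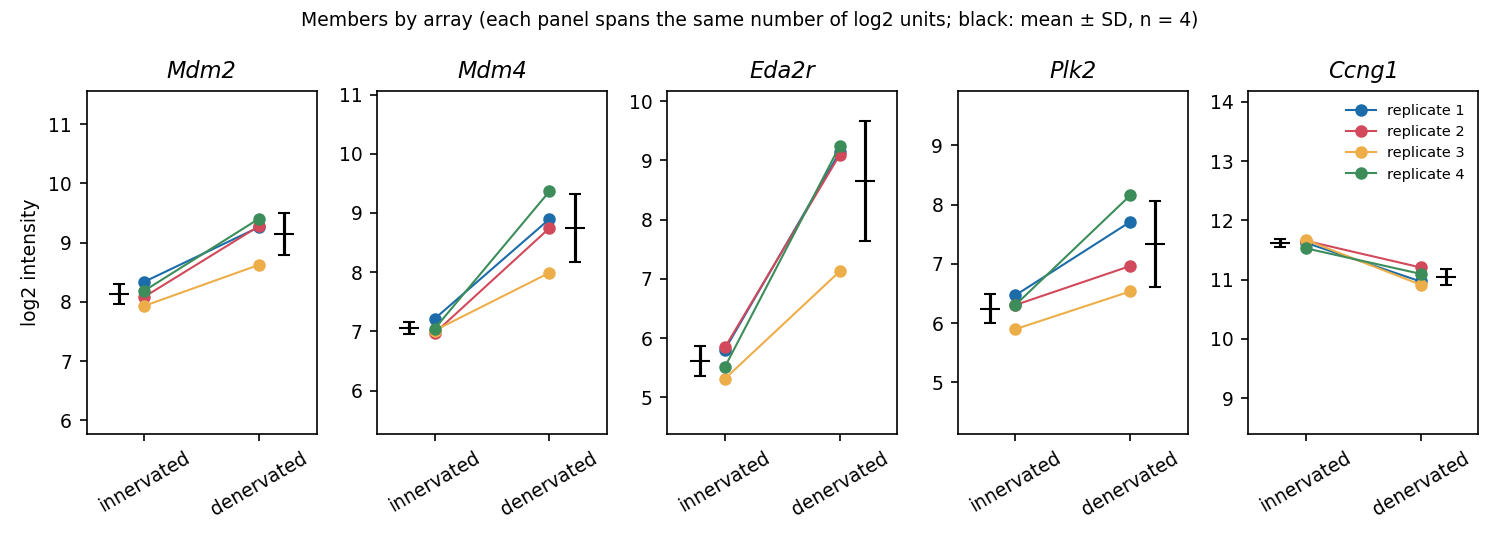
Log2 intensity of each member in the innervated and denervated arrays, with a line joining arrays of equal replicate number and black bars for the mean ± SD of 4 arrays. Mdm2, Mdm4, Eda2r and Plk2 were higher and Ccng1 lower on every denervated array, and denervated replicate 3 was the lowest of its group in all 5 panels.

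**Figure D2:**
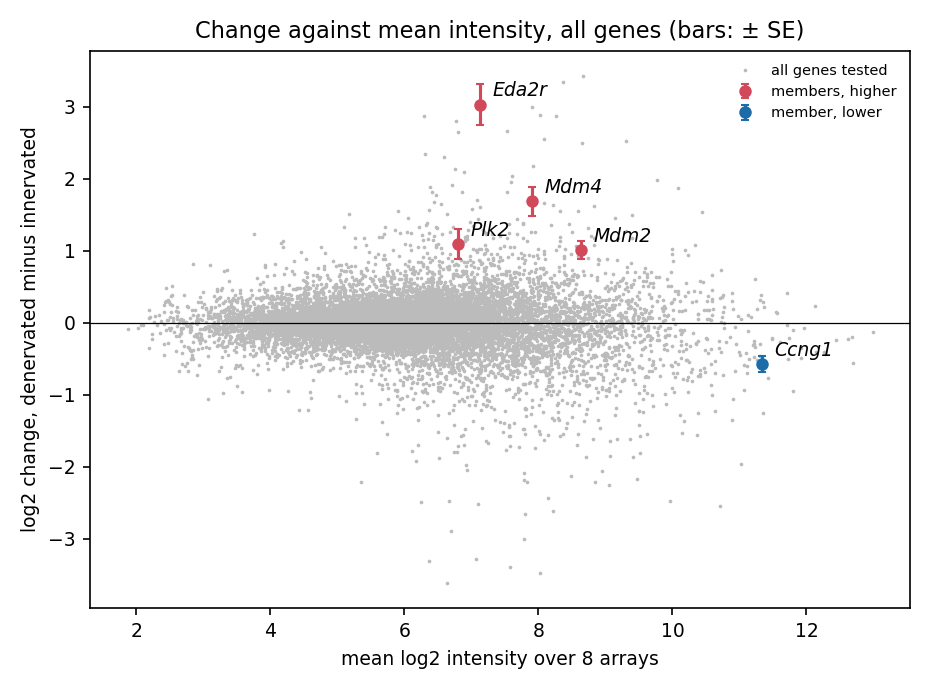
Difference between denervated and innervated muscle (log2) against the mean log2 intensity over 8 arrays for all 14860 genes, with the members marked and bars for ± SE. Eda2r lay at 3.03 near the top of the plot, and Ccng1 at -0.57 among the brightest genes.

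Over all 8 arrays the members that were higher also varied together within the groups. This is not independent of their choice, since genes chosen for a large rise may share the low values of denervated replicate 3. After subtraction of the group means, the 6 correlations among Mdm2, Mdm4, Eda2r and Plk2 lay between 0.78 and 0.93 over 8 arrays, and the 4 correlations of Ccng1 with these genes between 0.12 and 0.58. Denervated replicate 3 carried much of this spread, at -0.52 from the group mean for Mdm2, -0.76 for Mdm4, -1.52 for Eda2r and -0.81 for Plk2. Without both arrays of replicate 3, 6 arrays remained, and the correlations among the first 4 genes ran from 0.19 for Mdm2 with Eda2r to 0.89 for Mdm4 with Plk2. Those of Ccng1 ran from -0.48 with Plk2 to 0.36 with Eda2r. These correlations share the 8 arrays and their normalization and are given as a description. In denervated replicate 4, in turn, Mdm4, Eda2r and Plk2 stood 0.62, 0.59 and 0.82 above their means, and Mdm2 0.26.

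**Figure D3:**
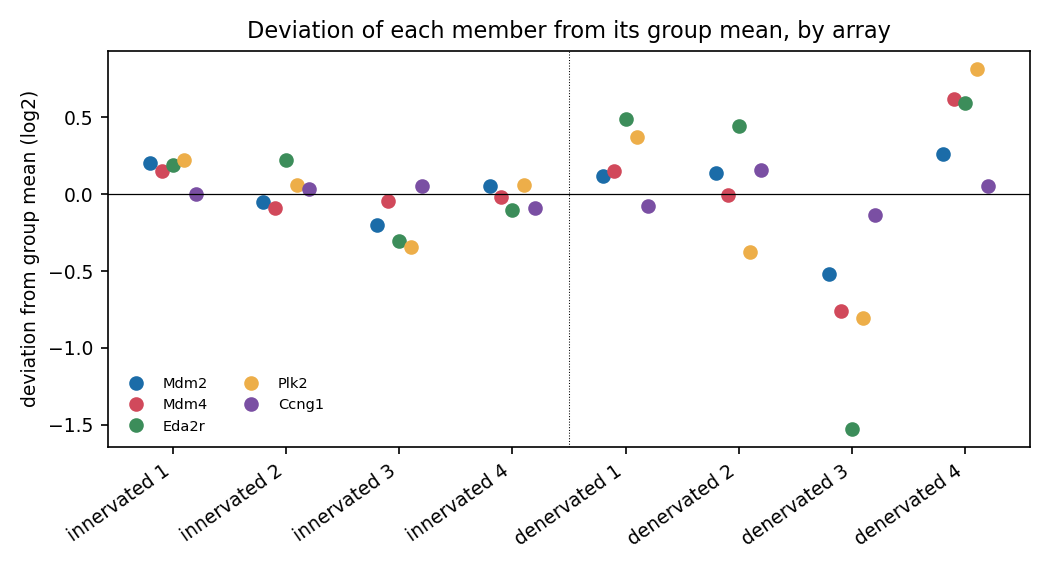
Deviation of each member from the mean of its group (log2) on each of the 8 arrays. Denervated replicate 3 lay below the mean for all 5 members, down to -1.52 for Eda2r, and denervated replicate 4 above it for all 5.

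The genes most like each member were taken by Pearson correlation of log2 intensities over all 8 arrays. For Mdm2 they were the kinase gene Dapk2, Impact and the pentose phosphate enzyme gene Pgd, each with r = 0.995 and with differences of 1.18, 0.96 and 0.78. For Mdm4 they were the adhesion molecule gene Ncam1 (r = 0.996), the kinase gene Riok3 (0.994) and Ranbp9 (0.994), with differences of 1.39, 1.45 and 0.89. For Eda2r they were the AMP deaminase gene Ampd3 (0.995), Sh3d19 (0.995) and the nucleolar gene Gnl3 (0.993), which encodes nucleostemin, with differences of 1.61, 2.18 and 0.82. For Plk2 the correlations were lower, at 0.984 for the lamin gene Lmna, 0.981 for the deubiquitinase gene Uchl1 and 0.981 for Psme3ip1. For Ccng1 they were Klhl31 (0.994), the cochaperone gene Dnajc15 (0.992) and the phosphatase subunit gene Ppp1cb (0.991), which were lower by -1.26, -0.80 and -0.41. Such values are common in this comparison, as 172, 163, 166, 35 and 130 genes had r above 0.95 with Mdm2, Mdm4, Eda2r, Plk2 and Ccng1. Group means were not subtracted, so these correlations contain the difference between the groups that chose the members. Shared regulation was not tested.

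The nearest measured gene on each side of each member, by order in the RefSeq table, gave 10 genes. Between member and gene lay 0 to 11 others without a probe set of their own here, so most were not directly adjacent. None of the 10 passed at an adjusted p under 0.05 in limma's fit across all genes, where 8.45% of all genes did. Of the 10, 2 had an unadjusted p under 0.05. Gabra6, Heph, Slc35e3, Gapt and Actbl2 were dim, with group means from 4.21 to 5.05 where array medians ran from 5.84 to 6.00. Lrrn2 was just below the medians, at 5.79 and 5.82. Without detection values a flat value at such levels is not read as an unchanged gene. Their differences ran from -0.17 for Gabra6 to 0.43 for Cpsf6 (SE 0.12, adjusted p = 0.0770), against -0.57 for Ccng1 and 3.03 for Eda2r. On chromosome 10, Slc35e3, the gene directly next to Mdm2, differed by 0.16 (SE 0.16, adjusted p = 0.668), and Cpsf6, a cleavage factor gene on the other side with 11 other genes between, passed under some settings (adjusted p = 0.0310 with array weights). On chromosome 11, Nudcd2, directly next to Ccng1, differed by 0.36 (SE 0.13, adjusted p = 0.154), in the direction opposite to Ccng1. On chromosome X, Heph and Yipf6, the nearest measured genes to Eda2r with 8 others between on each side, differed by 0.09 and 0.23 (adjusted p = 0.719 and 0.263 in limma). On chromosome 1, Lrrn2 and Ppp1r15b, with 2 and 7 genes between them and Mdm4, differed by 0.03 and 0.07. On chromosome 13, Gapt and Actbl2, with 1 and 9 genes between them and Plk2, differed by 0.05 and 0.004.

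**Figure D4:**
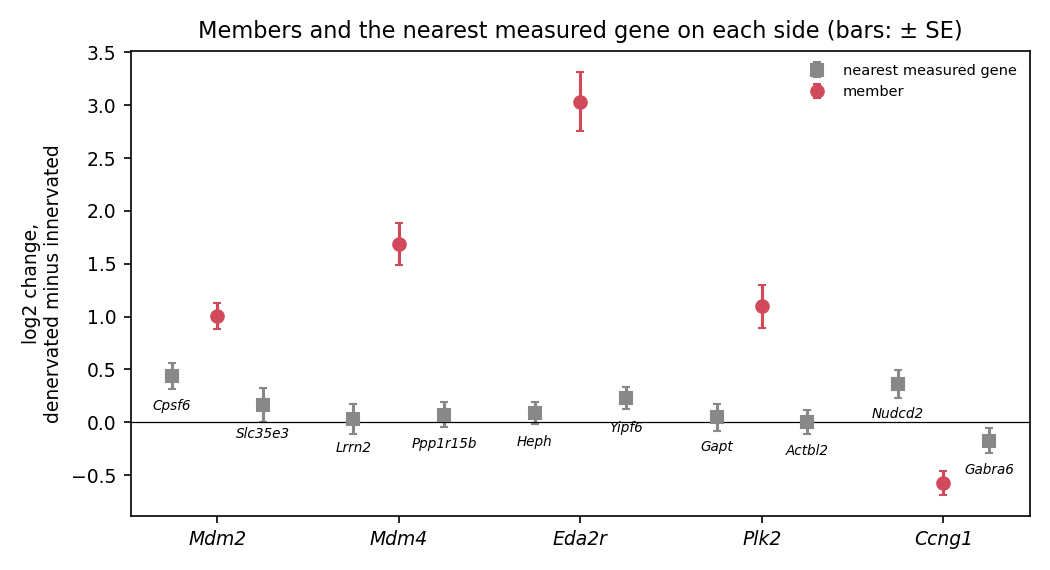
Difference between denervated and innervated muscle (log2, bars ± SE) for each member and for the nearest measured gene on each side of it. These genes lay between -0.17 and 0.43, while the members lay at -0.57 and from 1.01 to 3.03. Gabra6, Heph, Slc35e3, Gapt and Actbl2 were dim, so their flat values are not read as unchanged genes.

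Other p53 targets moved in both directions. Of 37 measured target genes 4 rose and 4 fell, or 21.6%, where 8.45% of all genes passed the test (3.56% higher and 4.89% lower). This list and the other lists around the members were chosen with earlier results of these data known, so nothing is read from such shares. The median difference of the targets was 0.08, against -0.01 over all genes. The genes that rose were the cell-cycle inhibitor Cdkn1a, which encodes p21, by 2.67 (SE 0.18, limma adjusted p = 0.000423), the growth arrest gene Gadd45a by 2.53 (SE 0.16), the tetraspanin gene Cd82 by 1.27 (SE 0.11) and the phosphatase gene Ptpn14 by 0.94 (SE 0.19). Cdkn1a read 6.22, 6.38, 5.89 and 6.33 in innervated muscle and 9.07, 9.05, 7.91 and 9.46 in denervated muscle, so that replicate 3 was the lowest of each group, as for Mdm2, Eda2r and Plk2. The genes that fell were Ak1, which encodes adenylate kinase and is abundant in muscle, by a difference of -1.56 (SE 0.15), the translesion polymerase gene Polk by -1.06 (SE 0.10), the phosphatase gene Ptp4a3 by -0.90 (SE 0.10) and Tigar, a regulator of glycolysis, by -0.67 (SE 0.13). The other 29 targets lay between -0.34 and 0.56, and 21 of them had a positive difference and 8 a negative one. Rps27l was the highest, at 0.56 (adjusted p = 0.0565 in limma), followed by Phlda3 and Btg2 at 0.42 each (0.133 and 0.109). Among the 29, also named after their values were seen, were the cell death genes Bbc3 at 0.34 and Perp at -0.34 (adjusted p = 0.104 and 0.112 in limma), Bid at 0.29, Fas and Pmaip1 at 0.11 each, Apaf1 at 0.09, Tnfrsf10b at 0.05, Aen at -0.05 and Pidd1 at -0.07. Without replicate 3 the difference of Ak1 was -1.40, and the part of the lower fibre markers in it was not tested. Cdkn1a, Gadd45a, Cd82, Ak1, Polk and Ptp4a3 passed under every alternative run. Ptpn14 missed the threshold without the replicate block and without replicates 1, 2 and 4 (limma adjusted p of 0.0635, 0.125, 0.0716 and 0.101), and Tigar without replicates 1, 2 and 4 (0.0584, 0.0823 and 0.103).

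Among the relatives and regulators of p53, 5 of 38 measured genes rose and 1 fell, or 15.8%, with a median difference of 0.01. The share over all genes was 8.45%, with 3.56% higher and 4.89% lower. The p53 gene itself is not analysed here. Its paralog Trp63 rose by 1.08 (SE 0.15, limma adjusted p = 0.00547). It read 6.75, 6.53, 6.52 and 6.84 in innervated muscle and 7.95, 7.77, 7.09 and 8.14 in denervated muscle, without overlap and with replicate 3 the lowest denervated array. The other paralog, Trp73, differed by -0.06 (adjusted p = 0.883). Gnl3 and the ribosomal protein gene Rpl23, whose products bind Mdm2, rose by 0.82 (SE 0.13) and 0.71 (SE 0.16), the kinase gene Akt1, whose product phosphorylates Mdm2, by 0.68 (SE 0.14), and the DNA-dependent protein kinase gene Prkdc by 0.52 (SE 0.11). Trim24, a ubiquitin ligase gene for p53, fell by 0.85 on the log2 scale (SE 0.12, limma adjusted p = 0.00585). The damage kinase genes Atm, Chek1 and Chek2 differed by 0.28, 0.02 and -0.05. Usp7 and Usp2, which encode deubiquitinases of Mdm2, differed by -0.21 and -0.55. None of these passed the threshold. Chek1 and Chek2 were dim, with group means from 4.63 to 4.90. Hipk2, named after its value was seen, had the lowest difference of the uncalled genes of this list, at -0.66 (adjusted p = 0.0538 in limma). Trp63 missed the threshold without replicate 1 (adjusted p = 0.0518 in limma), Gnl3 and Rpl23 without replicates 1, 2 and 4 (0.0504 to 0.0746 and 0.115 to 0.184), and Akt1 with no block (0.173), with a random block (0.0519) and without replicates 1 and 4 (0.125 and 0.118). Rpl23 also missed it after median centring (0.0652), and Prkdc without replicates 1, 2 and 4 (0.113 to 0.152). Without replicate 3 the difference of Gnl3 was 0.96. The list counted 0, 2 and 1 genes higher without replicates 1, 2 and 4, 6 without replicate 3, and 3 genes lower after quantile or cyclic loess normalization.

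Around the receptor Eda2r, its ligand gene Eda and its sister receptor gene Edar did not pass the test. Eda differed by -0.08 (SE 0.12, adjusted p = 0.809 in limma), from 5.68 ± 0.11 to 5.60 ± 0.28 (SD, n = 4), and Edar by -0.14, from 5.52 to 5.38. Both were below the array medians of 5.84 to 6.00. Without detection values these levels cannot be told from background. Of 25 measured genes of the ectodysplasin and NF-kB list 5 rose and 1 fell, or 24%, with a median of 0.03. Over all genes 8.45% passed, 3.56% higher and 4.89% lower. Cyld, which encodes a deubiquitinase that restrains NF-kB, rose by 1.36 (SE 0.12, limma adjusted p = 0.00114), and Birc3, an NF-kB target that encodes a ubiquitin ligase of the TRAF complex, by 1.16 (SE 0.13). Birc3 read 6.30, 6.04, 6.27 and 6.22 in innervated muscle and 7.76, 6.85, 7.36 and 7.53 in denervated muscle. The NF-kB subunit genes Rel and Nfkb2 rose by 0.67 (SE 0.17) and 0.63 (SE 0.11), and the adaptor gene Traf2 by 0.48 (SE 0.10), while Tab2, an adaptor of the kinase Tak1, fell by 0.70 on the log2 scale (SE 0.12). Map3k14, the NF-kB-inducing kinase gene through which the receptor is known to act, differed by 0.36 and Rela by 0.45, neither past the threshold. Rel is strongly expressed in leukocytes, whose markers were higher on denervated replicate 3; it read 7.45 there and 6.51 to 6.60 on the other denervated arrays, and the part of leukocytes in this was not tested. Of the 9 leukocyte markers 2 rose, or 22.2%, Tyrobp by 1.56 and Cd68 by 1.19. All 9 had a positive difference, from 0.10 to 1.56 with a median of 0.37. At an unadjusted p under 0.05 in limma, 6 of these markers were higher and 0 lower. Without the replicate block 3 genes of the list rose, with Rel at an adjusted p = 0.0975 in limma, and 2, 3, 7 and 2 rose without replicates 1, 2, 3 and 4. Rel differed by 0.48 without replicate 3 (adjusted p = 0.0429 in limma). It missed the threshold after median centring (0.0521), after quantile normalization (0.0882) and without replicates 1, 2 and 4 (0.0877, 0.133 and 0.116). Traf2 missed it without the block (0.0655) and without replicates 1, 2 and 4 (0.119 to 0.184), Nfkb2 without 1 and 4 (0.0822 and 0.0635) and Tab2 without 2 and 4 (0.0612 for each).

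Of 16 measured polo-like kinase, cyclin G and PP2A genes, the relatives and partners of Plk2 and Ccng1, 0 rose and 1 fell in limma's test. That is 6.25%, near the 8.45% of all genes, and the median difference was 0.02; at an unadjusted p under 0.05, 1 was higher and 1 lower. The gene that fell was Ppp2r5a, a PP2A regulatory subunit of the class that cyclin G1 binds, which read 10.50, 10.58, 10.19 and 10.35 in innervated muscle and 9.85, 10.11, 9.04 and 9.64 in denervated muscle. Its difference was -0.75 (SE 0.13, limma adjusted p = 0.0150), with adjusted p-values of 0.0745 without the replicate block and 0.0802 and 0.0666 without replicates 1 and 4. With the mean of its probe sets the difference was -0.48 (limma adjusted p = 0.251). The cyclin relatives Ccng2 and Ccni differed by 0.17 and 0.36 (adjusted p = 0.525 and 0.184 in limma), and the kinase genes Plk1, Plk3, Plk4 and Plk5 by 0.29, 0.05, 0.03 and -0.01. These kinase genes were dim, with group means from 4.58 for Plk4 to 5.79 for Plk5, so their values are not read as an absence of change. Whether the members differ from these relatives was not tested. Plk1 is a gene of dividing cells, and of 5 measured markers of such cells 1 rose, Mki67 by 0.78 (adjusted p = 0.0492 in limma), with a pair difference of 1.52 in replicate 3 against 0.35 to 0.82 in the others. Without replicate 3 Mki67 differed by 0.54 (adjusted p = 0.0392 in limma), and it did not pass after quantile normalization (0.0777), with no block (0.383), with a random block (0.162) and without replicates 1, 2 and 4 (0.0665 to 0.192). None of the 5 satellite cell or of the 2 measured Schwann cell markers passed limma's test, and 0 of them had an unadjusted p under 0.05. Of the 5 endothelial markers 1 fell, Kdr by a difference of -0.77. The 5 differences ran from -0.77 to -0.08, with a median of -0.44. At an unadjusted p under 0.05 in limma, 4 endothelial markers were lower and 0 higher. Of the 6 fibroblast markers 1 rose, Lum by 0.60, while their median was -0.08. At an unadjusted p under 0.05 in limma, 1 fibroblast marker was higher and 2 were lower, Col1a1 at -0.49 and Dpt at -0.37. Kdr and Lum both missed the threshold without replicates 1, 2 and 4 (limma adjusted p of 0.0607 to 0.0886 and 0.0555 to 0.0731).

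**Figure D5:**
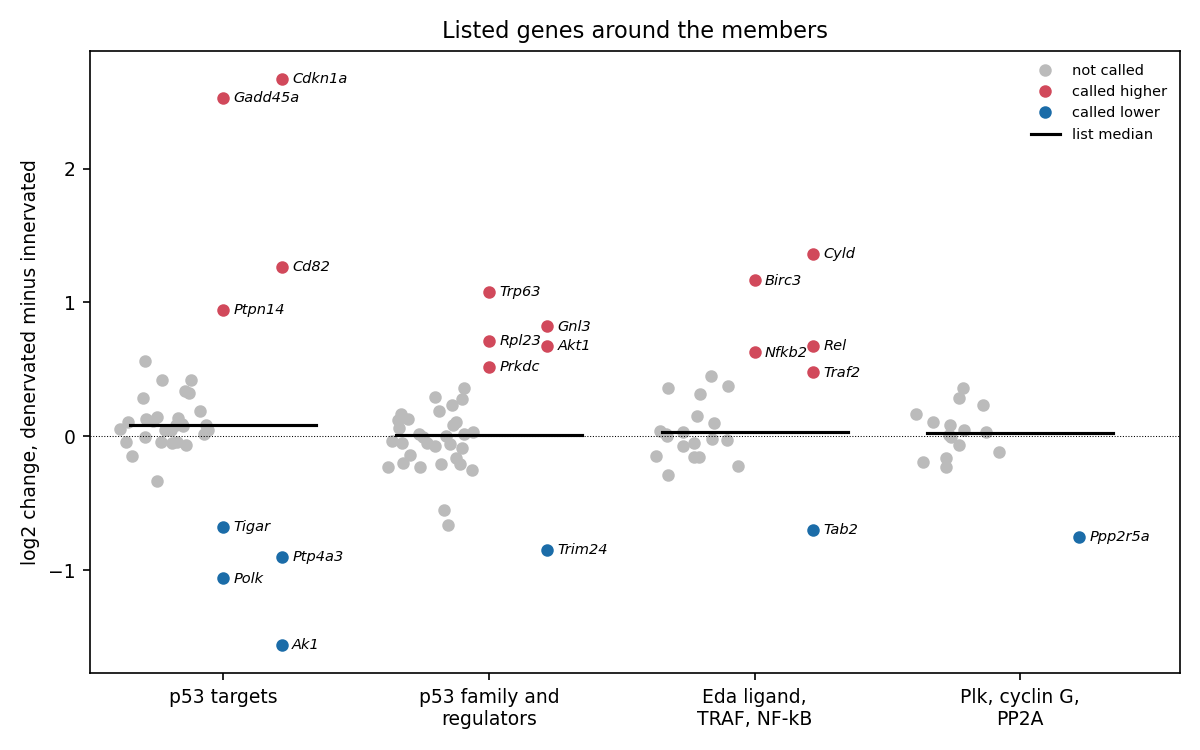
Difference between denervated and innervated muscle (log2) for each measured gene of the 4 lists around the members, coloured by the test across all genes, with a black line at the list median. Called genes lie on both sides of 0 among the p53 targets, from Ak1 at -1.56 to Cdkn1a at 2.67, and the list medians lie between 0.01 and 0.08.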

How the data were processed

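The authors' deposited table holds log2 intensities of 16755 probe sets on 8 arrays, made with GCOS and RMA (background correction, normalization between arrays and summary over probes), per the submitters' processing notes, which name the build mm9; versions and filters were not stated. Per the labels' protocols, 50 ng of total RNA was amplified and biotin-labelled. Of the probe sets 14996 had 1 gene symbol, 1019 several and 740 none; 135 genes had more than 1 probe set and the brightest was taken, leaving 14860 genes. limma 3.58.1 in R 4.3.3 fitted group and replicate number, with eBayes moderation and Benjamini-Hochberg adjustment over all genes (two-sided, threshold 0.05), and was tested on simulated data. The simulated noise was independent between arrays, without a replicate effect or an array set apart, so that test does not cover such features of these data. Replicate number entered the fit because the submitters' design compares each denervated muscle with that of the other leg. The labels leave unsaid whether equal numbers mark both legs of an animal, and whether the 4 arrays of a group are 4 animals. The p-values then describe only the variation among these arrays, which may be technical, and the precision is limited by their number.

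The members and lists were chosen with earlier results of these data known. Beside the members, the text names the called genes of 4 pathway lists (up to 4 per direction; Prkdc and Traf2 complete counts), called marker genes, the nearest measured gene on each side, and the 3 genes most correlated with each member. The 4 pathway lists and 7 marker lists held 182 entries, 158 of them measured. Alternatives were no block, a random block, 3 other normalizations, the dimmest 25% or 50% of genes left out, the mean of probe sets, array weights, and each replicate number left out; the correlations without replicate 3, and the alternatives for Prkdc, Traf2 and the called marker genes, were added after seeing the data. RefSeq promoters and gene order are of GRCm38.p6, which was used for no coordinate of the arrays.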

Additional observations from a re-analysis of the deposited data

Results flagged for a closer look

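In a group of 4 arrays, a value was marked when its gap to the nearest other exceeded Dixon's 95% critical value as a share of the group's range, which chance does in about 1 of 20 groups; 8 of the 96 groups tested were marked. Denervated replicate 3 was marked for Eda2r, at 7.13 against 9.10 to 9.25 on the other denervated arrays. The same array was marked for Ak1 (6.64 against 7.53 to 7.67), Gnl3 (8.90 against 9.41 to 9.45) and Rel (7.45 against 6.51 to 6.60). Innervated replicate 3 was marked for 2 of the nearest measured genes, Ppp1r15b (6.44 against 6.11 to 6.16) and Heph (5.10 against 4.57 to 4.66). The others were Slc35e3 in denervated replicate 2 (5.43 against 4.90 to 4.95) and Dnajc15 in innervated replicate 4 (8.97 against 9.16 to 9.18). Cd3e, a T-cell gene, read 7.50 on denervated replicate 3 and 5.56 to 5.94 on the other denervated arrays. The part of other cells in these values was not tested.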

How the results depend on the processing

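Each member kept its direction under the 8 alternatives that could change its value; the block settings and the mean of probe sets could not, as the pairs are balanced and each member has 1 probe set. The ranges were 0.94 to 1.11 for Mdm2, 1.48 to 1.94 for Mdm4, 2.80 to 3.44 for Eda2r, 0.85 to 1.34 for Plk2 and -0.62 to -0.36 for Ccng1. Of these values 2 moved by more than the SD of the pairs, Ccng1 at -0.36 after quantile and -0.39 after cyclic loess normalization. Without each replicate number in turn the ranges were 0.94 to 1.11, 1.48 to 1.93, 2.80 to 3.44, 0.85 to 1.25 and -0.62 to -0.51. With no replicate block 326 genes were called higher and 474 lower, against 529 and 726, and the ectodysplasin and NF-kB list counted 3 higher and the Plk, cyclin G and PP2A list 0 lower; the SE of the members became 0.18, 0.24, 0.42, 0.31 and 0.11. Same-numbered arrays correlated, after subtraction of group means, at 0.23, -0.03, 0.45 and 0.35, so number 2 showed no sign of pairing, and 3 of the 8 arrays were closest to an array of another number. With array weights the counts were 1058 higher and 1142 lower. Leaving out 1 replicate number gave 137 to 862 genes higher and 210 to 781 lower. In the same settings the p53 targets counted 3 to 5 higher and 3 to 4 lower, the regulators counted 0 to 6 higher and 1 to 2 lower, the ectodysplasin and NF-kB list counted 2 to 7 higher and 0 to 1 lower, and the Plk, cyclin G and PP2A list counted 0 higher in each and 0 to 1 lower. Regulators called lower numbered 3 with array weights, after quantile and cyclic loess normalization and in the fits that dropped the dimmest 25% or 50%, and 2 with the random block. With the dimmest 50% left out 7 p53 targets rose. With the mean of probe sets the Plk, cyclin G and PP2A list counted 0 lower. Of the nearest measured genes 1, Cpsf6, was called higher with array weights, the random block and in both fits that dropped dim genes. Uncalled genes among them changed sign: Actbl2 (-0.061 to 0.085 with a replicate left out), Gapt (-0.072 to 0.11), Lrrn2 (-0.065 to 0.17, and -0.017 with array weights) and Slc35e3 (-0.043 to 0.25). Apart from the smaller number of samples or genes in some settings, the cause was not tested. Without detection values, dim levels such as innervated Eda2r may understate a fold.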
